A study of Homo sapiens with 4 samples.

Results

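A set of 37 human genes of meiosis and of the piRNA pathway was followed on 4 expression arrays of the colon carcinoma cell line HCT116. The genes were chosen by name for their known roles in germ cells, with earlier results of these data known. They were found on the array by the RefSeq accession of each probe. Of the 37, 36 had a matched probe, among 21611 genes that could be named in this way, and 49 probes measured them. TEX15 had no matched probe and was not analysed here.

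The arrays compared 2 subpopulations of HCT116, each with vehicle or with 5 µM 5-azacytidine for 48 h. MG cells had crossed the membrane of a migration chamber in repeated rounds of selection, and non-MG cells had stayed on it. Both are enriched populations of a single cell line, for which the labels name no genetic change, and each of the 4 conditions has 1 array of RNA labelled with Cy3. There are therefore no replicates, and no test between conditions was made. All 4 arrays lay on 1 slide, with the non-MG cells in row 1 and the MG cells in row 2, and with vehicle in column 3 and 5-azacytidine in column 4, so that the place on the slide cannot be told apart from the subpopulation or the treatment. Epithelial markers were present, with 6 of 6 (CDH1, CLDN4, EPCAM, KRT8, KRT18 and KRT19) well above background on every array. Of the markers of other cells, 5 of 6 for fibroblasts were well above background on no array. The same held for 2 of 4 measured for leukocytes and 2 of 3 for endothelium. The others, COL1A1, CD68, CD79A and VWF, were well above background on every array.

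In meiosis, homologous chromosomes are held together by the synaptonemal complex, which forms on a chromosome axis built with meiotic cohesins, while programmed DNA breaks are made and repaired by recombination. In the piRNA pathway, Argonaute proteins of the PIWI family carry small RNAs that silence transposons in germ cells, and tudor domain proteins gather these Argonautes in germ granules. Many genes of both systems are kept off in somatic cells, and promoters rich in CpG pairs and methylated on them are a known feature of such genes. 5-Azacytidine is built into nucleic acids, traps DNA methyltransferases and lowers DNA methylation. DNA methylation itself was not analysed here.

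The promoters of 8 members are shown because they stand for the patterns that the arrays gave. SYCP3 (chr12:101739413-101739712, minus strand), TDRD1 (chr10:114179103-114179402, plus strand), TDRD12 (chr19:32719517-32719816, plus strand), DDX43 (chr6:73394578-73394877, plus strand) and TKTL1 (chrX:154295545-154295844, plus strand) were well above background with 5-azacytidine alone in both subpopulations. DAZL (chr3:16605374-16605673, minus strand) was so in MG cells with 5-azacytidine alone, SYCE2 (chr19:12919244-12919543, minus strand) was well above background on every array, and MAEL (chr1:166975332-166975631, plus strand) had the most CpG pairs. Each is a window of 300 bases around the annotated transcription start in RefSeq GRCh38.p14, read 5′ to 3′ on the strand of the gene. Capitals mark the CpG pairs.
SYCP3: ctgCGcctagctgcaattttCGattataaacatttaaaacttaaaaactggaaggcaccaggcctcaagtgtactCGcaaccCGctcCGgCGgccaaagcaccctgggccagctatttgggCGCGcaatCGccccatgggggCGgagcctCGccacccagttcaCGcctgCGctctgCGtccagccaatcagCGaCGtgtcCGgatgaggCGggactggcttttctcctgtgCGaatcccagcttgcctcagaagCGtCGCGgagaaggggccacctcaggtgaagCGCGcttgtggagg
TDRD1: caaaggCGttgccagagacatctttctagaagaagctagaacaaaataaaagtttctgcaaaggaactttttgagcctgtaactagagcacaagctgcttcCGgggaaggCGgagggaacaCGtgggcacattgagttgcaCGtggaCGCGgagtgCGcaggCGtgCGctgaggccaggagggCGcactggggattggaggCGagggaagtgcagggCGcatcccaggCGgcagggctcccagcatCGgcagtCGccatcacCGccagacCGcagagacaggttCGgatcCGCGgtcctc
TDRD12: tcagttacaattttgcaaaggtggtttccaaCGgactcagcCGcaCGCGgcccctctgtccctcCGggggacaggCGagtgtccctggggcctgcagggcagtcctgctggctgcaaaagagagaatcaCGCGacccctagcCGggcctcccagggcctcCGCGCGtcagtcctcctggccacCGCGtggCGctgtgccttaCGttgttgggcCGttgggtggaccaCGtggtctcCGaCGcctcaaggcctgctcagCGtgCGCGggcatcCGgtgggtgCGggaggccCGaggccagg
DDX43: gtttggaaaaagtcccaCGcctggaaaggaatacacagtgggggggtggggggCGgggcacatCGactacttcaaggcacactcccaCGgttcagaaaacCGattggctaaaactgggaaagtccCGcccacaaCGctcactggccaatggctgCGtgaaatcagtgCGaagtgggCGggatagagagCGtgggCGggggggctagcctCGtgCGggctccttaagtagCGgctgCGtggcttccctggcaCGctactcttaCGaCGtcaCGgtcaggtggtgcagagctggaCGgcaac
TKTL1: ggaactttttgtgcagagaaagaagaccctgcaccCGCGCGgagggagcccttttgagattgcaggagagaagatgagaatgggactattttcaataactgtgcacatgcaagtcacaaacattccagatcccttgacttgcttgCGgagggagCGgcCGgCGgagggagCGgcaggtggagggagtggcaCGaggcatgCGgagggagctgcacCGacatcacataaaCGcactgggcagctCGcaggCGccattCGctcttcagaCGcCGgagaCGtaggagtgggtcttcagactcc
DAZL: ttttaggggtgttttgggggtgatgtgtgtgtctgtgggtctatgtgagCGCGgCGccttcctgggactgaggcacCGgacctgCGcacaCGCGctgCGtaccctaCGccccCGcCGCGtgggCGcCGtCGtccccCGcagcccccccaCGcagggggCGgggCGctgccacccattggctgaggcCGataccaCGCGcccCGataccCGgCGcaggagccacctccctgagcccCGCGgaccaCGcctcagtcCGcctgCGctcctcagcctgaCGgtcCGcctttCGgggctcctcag
SYCE2: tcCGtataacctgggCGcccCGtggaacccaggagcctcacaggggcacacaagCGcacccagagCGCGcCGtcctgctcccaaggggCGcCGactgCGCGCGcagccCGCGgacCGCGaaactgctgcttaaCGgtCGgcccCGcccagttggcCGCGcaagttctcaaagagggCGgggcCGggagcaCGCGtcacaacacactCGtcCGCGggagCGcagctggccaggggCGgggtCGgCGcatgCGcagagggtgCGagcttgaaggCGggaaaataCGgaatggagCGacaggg
MAEL: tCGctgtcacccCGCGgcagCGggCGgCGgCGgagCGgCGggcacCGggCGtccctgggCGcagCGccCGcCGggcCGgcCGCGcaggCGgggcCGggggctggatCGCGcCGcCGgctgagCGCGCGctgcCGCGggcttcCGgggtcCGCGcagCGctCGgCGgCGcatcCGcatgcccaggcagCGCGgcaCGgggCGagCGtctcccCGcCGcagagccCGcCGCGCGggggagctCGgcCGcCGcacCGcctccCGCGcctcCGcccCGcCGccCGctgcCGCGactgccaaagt

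A gene was called well above background on an array where Feature Extraction, the scanner software, set that flag for a probe of it, which requires a signal clearly beyond the noise of the local background. Silent here means well above background on none of the 4 arrays, and expressed throughout means on all 4. Switched on means with 5-azacytidine and not with vehicle. Switched on in a single subpopulation does not fix the pattern in the other, where the gene may be well above background on both arrays. Of the 36 members, 20 were silent, compared with 33.2% of all named genes. Another 5, SYCP3, TDRD1, TDRD12, DDX43 and TKTL1, were switched on in both subpopulations, compared with 0.583% of all named genes. DAZL was switched on in MG cells alone (1.65% of all named genes), and no member was switched on in non-MG cells alone (1.27%). Expressed throughout were 7 members, SYCE2, STAG3, REC8, MSH5, MEI1, TDRD6 and TDRKH, compared with 59% of all named genes. MSH4, PIWIL4 and TEX14 had other patterns, as did 4.31% of all named genes. Fewer cells with a transcript and less transcript per cell cannot be told apart in these RNA pools.

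The share can also be read among genes that had room to be switched on. Well above background in neither subpopulation with vehicle were 26 members and 7698 named genes. Of these 26 members, 5 were switched on in both subpopulations, compared with 1.64% of the 7698 genes. In MG cells alone it was 1 member, compared with 3.07%, and in non-MG cells alone it was none, compared with 2.21%. The members were chosen with earlier results of these data known, so that these shares are no test of the set.

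**Figure D1:**
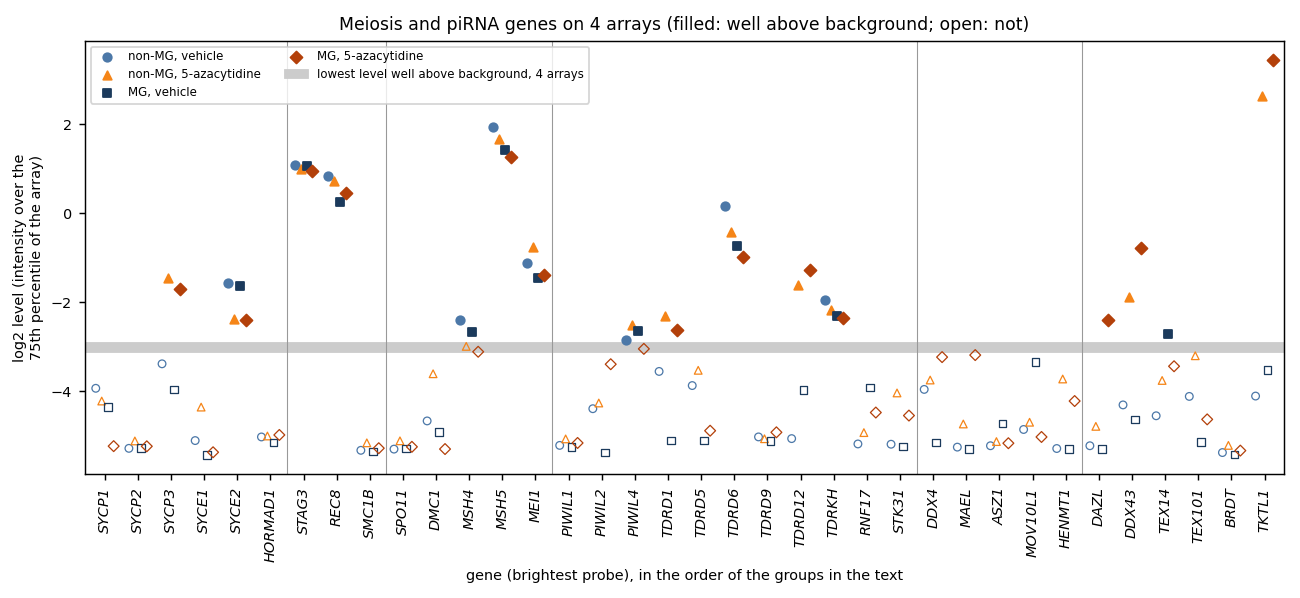
Level of 36 members on the 4 arrays, as the log2 of the intensity over the 75th percentile of its array (vertical axis), for the brightest probe of each gene (horizontal axis, grouped by role and separated by lines). Filled symbols are well above background, open symbols are not, and the grey band spans the lowest level well above background on the 4 arrays, from -3.12 to -2.92. SYCP3, TDRD1, TDRD12, DDX43 and TKTL1 have filled symbols for both arrays with 5-azacytidine and open symbols for both with vehicle.

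Of the synaptonemal complex and chromosome axis, 4 of 6 members were silent, 1 was switched on in both subpopulations and 1 was expressed throughout. SYCP3, a structural protein of the axis and the lateral elements, had an intensity of 8.35 in non-MG cells with vehicle and 27.3 with 5-azacytidine, and of 6.34 in MG cells with vehicle and 29.8 with 5-azacytidine. Both arrays with 5-azacytidine were high, and both with vehicle were low and not well above background. Intensities are background-corrected and in arbitrary units, and folds were taken after scaling each array to its 75th percentile. Where the dimmer array was not well above background, its signal is a bound, and the fold is given as the least one that the lowest signal well above background there allows. SYCP3 was at least 3.15-fold higher with 5-azacytidine than with vehicle in non-MG cells and at least 2.66-fold higher in MG cells. Between the subpopulations with 5-azacytidine, the log2 difference of MG minus non-MG cells was -0.23, less than the spot error of 0.28, and its sign turned under another scaling. The spot error is the SD expected of a difference from spotting and scanning alone, taken from probes spotted 10 times. It covers neither cultures nor labelling.

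**Figure D2:**
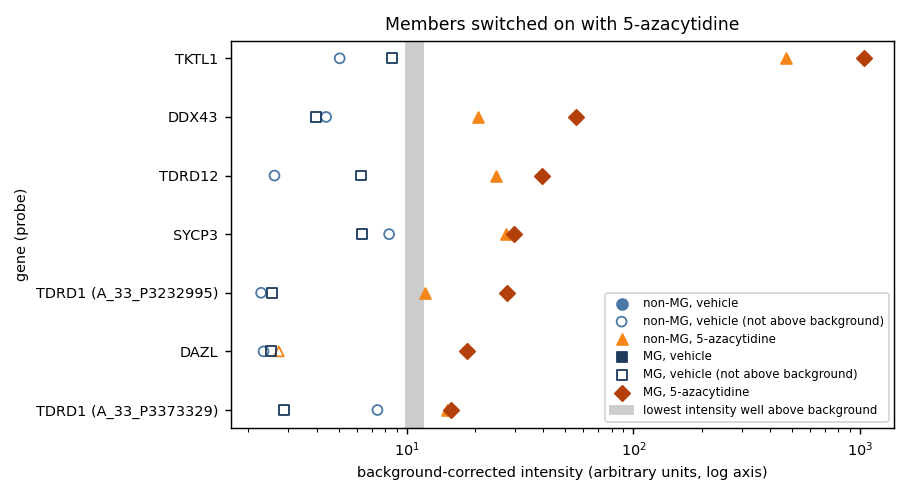
Background-corrected intensity (horizontal axis, arbitrary units, log scale) of the 6 genes switched on in at least 1 subpopulation, with a row for each probe and a symbol for each array. Filled symbols are well above background, open symbols are not, and the grey band spans the lowest intensity well above background on the 4 arrays, from 9.95 to 11.8. TKTL1 lay at 5.05 and 8.63 with vehicle and at 470 and 1043 with 5-azacytidine, and DAZL lay to the right of the band in MG cells with 5-azacytidine alone.

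SYCE2, a protein of the central element, was measured on every array and was lower with 5-azacytidine. Its intensity was 29.3 in non-MG cells with vehicle and 14.5 with 5-azacytidine, and 31.8 in MG cells with vehicle and 18.3 with 5-azacytidine. Both arrays with 5-azacytidine were dimmer than both with vehicle. The log2 difference of 5-azacytidine over vehicle was -0.81 in non-MG cells (spot error 0.38) and -0.76 in MG cells (spot error 0.28), a fold of 1.75 and of 1.70. It was below 0 under each scaling tried. With normexp background correction and an offset of 50 it was only -0.19 and -0.17, which does not pass 1.5-fold. That offset is added to every signal and shrinks the differences of dim probes. SYCP1, of the transverse filaments, SYCP2, of the lateral elements, SYCE1, of the central element, and HORMAD1, of the unsynapsed axis, were silent. SYCP1 had intensities from 2.57 to 5.70 and SYCE1 from 2.30 to 3.68. SYCP2 and HORMAD1 did not carry even the lower flag, which marks a signal significantly above the local background, on any array.

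Of the meiotic cohesin subunits, SMC1B was silent, with intensities from 2.11 to 2.49, and STAG3 and REC8 were expressed throughout. STAG3 was measured by 2 probes well above background, with intensities of 56.6, 57.2, 63.9 and 94.7 for A_23_P145657 and of 183, 151, 206 and 187 for A_32_P170749, in the order non-MG cells with vehicle, non-MG cells with 5-azacytidine, MG cells with vehicle and MG cells with 5-azacytidine. In MG cells the log2 difference of 5-azacytidine over vehicle was 0.60 for the dimmer probe (spot error 0.16) and -0.11 for the brighter probe (spot error 0.10), so that the probes disagreed. A further STAG3 probe was well above background nowhere and carried the lower flag on both arrays with 5-azacytidine alone, with intensities of 2.01, 4.12, 2.30 and 4.84. REC8, the meiotic kleisin, had intensities of 157, 124, 117 and 132 in the same order. It was highest in non-MG cells with vehicle. The log2 difference of MG minus non-MG cells was -0.61 with vehicle and -0.27 with 5-azacytidine (spot error 0.11 each).

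Among the 5 recombination genes, SPO11, which makes the meiotic breaks, and DMC1, the meiotic recombinase, were silent. MSH5, a partner of MSH4 at crossovers, had intensities of 334, 238, 265 and 232 for A_33_P3233081 and of 70.0, 67.2, 57.5 and 58.1 for A_33_P3346222. Both probes were lower in MG cells than in non-MG cells. With vehicle the log2 difference of MG minus non-MG cells was -0.52 and -0.46 for the probes (spot errors 0.09 and 0.16), and with 5-azacytidine it was -0.40 and -0.57 (spot errors 0.10 and 0.16). MEI1, required for meiotic break formation, had intensities of 40.2, 44.4, 36.1 and 36.8. The log2 difference of MG minus non-MG cells was -0.34 with vehicle and -0.63 with 5-azacytidine (spot error 0.18 each). MSH4 was well above background on both arrays with vehicle and on neither with 5-azacytidine, the reverse of the switched-on pattern, with intensities of 16.4, 9.46, 15.5 and 11.2. These values lay close to the limit, and MSH4 was at least 1.43-fold lower with 5-azacytidine in non-MG cells (spot error 0.38) and at least 1.28-fold lower in MG cells (spot error 0.45).

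The 11 Argonautes and tudor proteins of the piRNA pathway included 6 silent genes, 2 switched on in both subpopulations, 2 expressed throughout and PIWIL4. TDRD12, a tudor protein with a helicase domain, had intensities of 2.61, 24.7, 6.29 and 39.7, high on both arrays with 5-azacytidine and low on both with vehicle. It was at least 2.85-fold higher with 5-azacytidine in non-MG cells and at least 3.54-fold higher in MG cells. TDRD1, a scaffold of germ granules, had intensities of 2.27, 12.0, 2.53 and 27.8 for A_33_P3232995 and of 7.42, 15.1, 2.87 and 15.7 for A_33_P3373329. Both probes were well above background on the arrays with 5-azacytidine alone. With 5-azacytidine, TDRD1 was at least 1.38-fold and 1.74-fold higher for these probes in non-MG cells and at least 2.48-fold and 1.4-fold higher in MG cells. The probes disagreed on the subpopulations, with a log2 difference of MG minus non-MG cells with 5-azacytidine of 0.86 for the first (spot error 0.38) and -0.30 for the other (spot error 0.45).

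TDRD6, a large tudor protein of the chromatoid body, had intensities of 97.4, 55.8, 59.7 and 49.1 for A_33_P3232965, and its other probe was well above background on no array. It was highest in non-MG cells with vehicle. The log2 difference of 5-azacytidine over vehicle was -0.59 in non-MG cells (spot error 0.16) and -0.25 in MG cells (spot error 0.18), and that of MG minus non-MG cells with vehicle was -0.89 (spot error 0.16). TDRKH, which links PIWI proteins to mitochondria, had intensities of 22.6, 16.7, 19.9 and 18.8 for A_23_P46351. Its other probe, A_24_P41975, had 15.4, 14.1, 12.8 and 12.9 and was well above background in non-MG cells alone. For A_23_P46351 the log2 difference of MG minus non-MG cells with vehicle was -0.36 (spot error 0.28), and that of 5-azacytidine over vehicle was -0.22 in non-MG cells and -0.05 in MG cells, each less than its spot error of 0.28.

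PIWIL4, a nuclear PIWI protein, had intensities of 12.1, 13.1, 15.7 and 11.7 and was well above background on every array except that of MG cells with 5-azacytidine. These values were all near the limit of detection. PIWIL1, PIWIL2, TDRD5, TDRD9, RNF17 and STK31 were silent, with highest intensities over the arrays from 2.70 for PIWIL1 to 9.19 for PIWIL2. PIWIL1 was spotted 10 times on each array, so that its silence rests on more than a single spot. The spots of PIWIL1 ranged from 2.0 to 2.71 and from 1.98 to 2.56 in non-MG cells with vehicle and 5-azacytidine, and from 2.29 to 3.04 and from 2.30 to 3.16 in MG cells. On each array this is about the level of probes without a significant signal, whose median intensity was between 2.22 and 2.73.

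All 5 other piRNA factors, DDX4, MAEL, ASZ1, MOV10L1 and HENMT1, were silent. MAEL, needed for transposon silencing in the male germ line, also had 10 spots on each array, of which 9 were used in non-MG cells with vehicle. Its spots ranged from 2.06 to 2.56 in non-MG cells with vehicle, from 2.11 to 5.04 in non-MG cells with 5-azacytidine, from 2.28 to 2.73 in MG cells with vehicle and from 6.78 to 13.8 in MG cells with 5-azacytidine. The spots of MG cells with 5-azacytidine did not overlap those of any other array. The lower flag was set for 10 of 10 spots on that array, for 4 of 10 in non-MG cells with 5-azacytidine and for none with vehicle. The flag for well above background was set for 2 of the 10 spots, and a probe was called above background where more than 50% of its spots were. The spots are repeats of the measurement on 1 array, not of the cells. If any spot sufficed, MAEL would be switched on in MG cells alone.

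**Figure D3:**
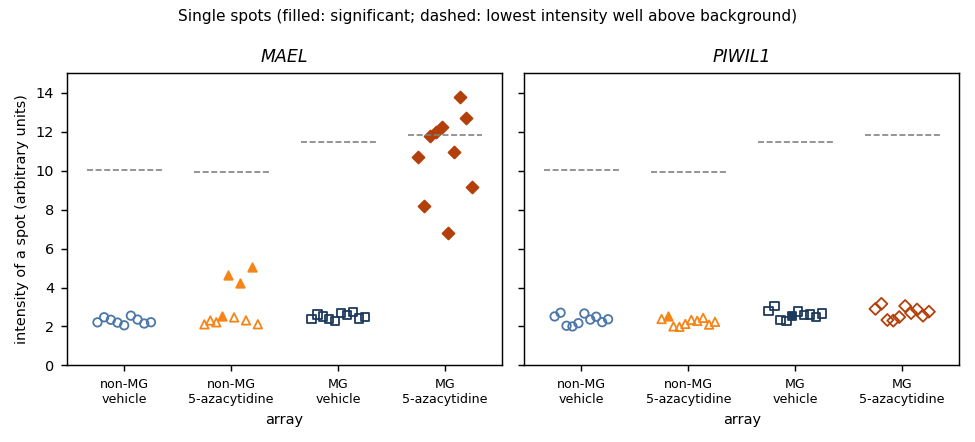
Background-corrected intensity (vertical axis, arbitrary units) of every used spot of MAEL and PIWIL1 on the 4 arrays (horizontal axis). Filled symbols carry the lower flag for a significant signal, open symbols do not, and dashed lines mark, for each array, the dimmest probe well above background. The flags are set spot by spot, and a spot past the line need not carry that for well above background. The 10 MAEL spots of MG cells with 5-azacytidine lie between 6.78 and 13.8, above all others, and the PIWIL1 spots lie between 1.98 and 3.16 on all arrays.

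DDX4, the VASA helicase of germ cells, had intensities of 5.60, 5.60, 2.79 and 10.3 and carried the lower flag on every array. It was highest in MG cells with 5-azacytidine without being well above background there. HENMT1, which methylates the ends of piRNAs, had 2.23, 5.69, 2.50 and 5.18, and the lower flag was set on both arrays with 5-azacytidine alone. The probe A_24_P231010 of MOV10L1, a helicase of piRNA precursors, did the same with 2.16, 5.24, 2.42 and 4.78, whereas A_23_P143774 had its highest value, 9.79, in MG cells with vehicle. Of the 49 member probes, 6 (of SYCP3, TDRD1, TDRD12, DDX43 and TKTL1) were well above background on both arrays with 5-azacytidine and on neither with vehicle, compared with 0.49% of all named probes. By the lower flag, 7 probes (of STAG3, TDRD1, RNF17, STK31, MOV10L1, HENMT1 and DAZL) had that pattern, compared with 1.25% of all named probes. Of these, the probes of RNF17, STK31, MOV10L1 and HENMT1 belong to silent genes. The TDRD1 probe A_33_P3232995 has both patterns.

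The lower flag alone gave other classes. By it, 7 members (SYCP2, HORMAD1, SMC1B, SPO11, PIWIL1, TDRD9 and BRDT) had a significant signal on no array, compared with 9.33% of all named genes, and 19 had one on every array, compared with 72.3%. Only DAZL and HENMT1 had it with 5-azacytidine alone in both subpopulations, compared with 1.21% of all named genes. MAEL, STK31 and TEX101 were switched on in MG cells alone by this flag (4.12% of all named genes). TDRD12 was so in non-MG cells alone (3.56%), and 4 members had other patterns (9.47%). However, STK31 and TEX101 also had the flag on both arrays of non-MG cells, and TDRD12 on both arrays of MG cells. SYCP3, TDRD1, DDX43 and TKTL1 carried it on every array, so that for these genes the weak signal with vehicle was above the local background and not well above it.

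Of the 6 other germ cell genes with a probe, 2 were switched on in both subpopulations, DAZL in MG cells alone, and 2 were silent. TKTL1, a transketolase-like gene known from testis and tumours, had intensities of 5.05, 470, 8.63 and 1043. Both arrays with 5-azacytidine were far above both with vehicle, and TKTL1 was at least 54.2-fold higher with 5-azacytidine in non-MG cells and at least 93.1-fold higher in MG cells. Between the subpopulations with 5-azacytidine, the log2 difference of MG minus non-MG cells was 0.79 (spot error 0.08) and ranged from 0.67 to 1.05 over the scalings tried. DDX43, a DEAD-box helicase of the cancer-testis class, had intensities of 4.40, 20.5, 3.97 and 55.9. It was at least 2.37-fold higher with 5-azacytidine in non-MG cells and at least 4.99-fold higher in MG cells. With 5-azacytidine, DDX43 was 2.12-fold higher in MG than in non-MG cells, a log2 difference of 1.09 (spot error 0.24), which ranged from 0.37 to 1.34 over the scalings tried and did not pass 1.5-fold at its lowest.

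DAZL, an RNA-binding protein of early germ cells, had intensities of 2.33, 2.72, 2.52 and 18.3. The array of MG cells with 5-azacytidine was high and the other arrays were near the level of probes without a significant signal. DAZL was measured by 1 probe with a single spot, as were SYCP3, TDRD12, DDX43 and TKTL1. DAZL was at least 1.64-fold higher with 5-azacytidine than with vehicle in MG cells. With 5-azacytidine it was at least 1.44-fold higher in MG than in non-MG cells (spot error 0.30 each). Its lower flag was also set in non-MG cells with 5-azacytidine, so that DAZL is switched on in both subpopulations by that flag. TEX14, of the intercellular bridges of germ cells, was well above background in MG cells with vehicle alone, with 3.72, 5.57, 15 and 8.91. TEX101, a surface protein of germ cells, and BRDT, the testis-specific bromodomain protein, were silent, with highest intensities of 8.18 and 2.39.

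A fold past 1.5 was counted for the 15 members that had a retained probe, one with the flag for well above background on 1 array or more and with no more than 1 array in the lowest 20th percentile. The comparison asks how 5-azacytidine changed expression in each subpopulation. In non-MG cells, 6 members were higher with 5-azacytidine (SYCP3, TDRD1, TDRD12, DDX43, TKTL1 and TEX14), compared with 4.82% of 14314 retained named genes, and 2 were lower (SYCE2 and TDRD6), compared with 3.19%. TEX14 is among them although it was not well above background on either array, and no fold is given for it. In MG cells, 5 members were higher (SYCP3, TDRD1, TDRD12, DDX43 and TKTL1), compared with 6.49%, and 2 were lower (SYCE2 and TEX14), compared with 4.27%. SYCP3, TDRD1, TDRD12, DDX43 and TKTL1 were not well above background with vehicle in either subpopulation, so that their folds are bounds. TEX14 in MG cells was not well above background with 5-azacytidine. In MG cells the retained probe of TDRD1 is bound only to at least 1.4-fold higher and TEX14 to at least 1.24-fold lower. With signals raised to the detection limit, 5 members were higher and 2 lower in non-MG cells, and 4 higher and 1 lower in MG cells. With normexp, TKTL1 alone was past 1.5-fold in non-MG cells, and DDX43 and TKTL1 alone in MG cells. A member could be retained through its signal with 5-azacytidine alone, so that these shares are no measure of the set as a whole. Among members well above background on both arrays compared, the median log2 difference was -0.06 over 8 members in non-MG cells and -0.05 over 7 in MG cells, compared with -0.05 and -0.01 over all such genes.

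The subpopulations were compared in the same way, to ask how MG cells differ from non-MG cells. With vehicle, 3 members were higher in MG cells (TDRD12, TEX14 and TKTL1), compared with 7.8% of retained named genes, and 3 were lower (TDRD1, TDRD6 and REC8), compared with 10.5%. None of the higher members and only TDRD6 and REC8 of the lower ones were well above background on both arrays. With 5-azacytidine, 2 members were higher in MG cells (DDX43 and TKTL1), compared with 8.24%, and MEI1 was lower, compared with 9.1%, and all of these were well above background on both arrays. MEI1 with 5-azacytidine and REC8 with vehicle no longer passed 1.5-fold when arrays were scaled to their median, which left 0 and 2 members lower. With normexp no member was lower in either comparison, and TKTL1 with 5-azacytidine was the only one higher. Each of the 7 members expressed throughout had a log2 difference of MG minus non-MG cells with vehicle below 0, from -0.89 for TDRD6 to -0.01 for STAG3, with a median of -0.36, although the sign turned under another scaling for STAG3 and SYCE2. Over all genes measured on both arrays the median was 0.01, and scaling each array to its median rather than its 75th percentile moved that value up by 0.20 with vehicle and by 0.26 with 5-azacytidine.

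Other genes of the same systems were read from lists of further members. Of all named genes, 33.2% were silent, 59% were expressed throughout and 0.583% were switched on in both subpopulations. Switched on in MG cells alone were 1.65% of them, and in non-MG cells alone 1.27%. Of 24 other meiosis genes measured, 14 were silent, 4 were expressed throughout and 1, TEX11, was switched on in both subpopulations. TEX11, an X-linked meiosis gene, had intensities of 3.01, 14.9, 2.44 and 28.1, high with 5-azacytidine and low with vehicle. By the flag, RAD21L1, a meiotic kleisin, was switched on in MG cells alone, and MEIOB, STRA8 and SHOC1 in non-MG cells alone. Most of these genes had values near the limit. As computed, the log2 difference of 5-azacytidine over vehicle for MEIOB was 1.22 in MG and 0.33 in non-MG cells. It was 1.89 and 2.66 for STRA8, and -0.57 and 0.57 for SHOC1. For MEIOB and STRA8 the class therefore does not mean that the signal rose in non-MG cells alone. MEIOB, STRA8 and SHOC1 were well above background on neither array of MG cells, so that no fold is given there. Of 16 other piRNA and germ granule genes, 9 were expressed throughout, 5 were silent, and NANOS3 and TDRP were switched on in non-MG cells alone. The shares expressed throughout (56.25%) and silent (31.25%) were near those of all named genes. NANOS3 was already well above background in MG cells, with vehicle and with 5-azacytidine, and TDRP was so on neither array of MG cells. Of 12 germ cell regulators, 8 were silent, 3 were expressed throughout and SOHLH1, a transcription factor of spermatogonia and oocytes, was switched on in both subpopulations with 3.85, 42.9, 2.89 and 67.9. SOHLH1 was at least 4.94-fold higher with 5-azacytidine in non-MG cells and at least 6.06-fold higher in MG cells. Of 19 genes of haploid spermatids, such as the protamines, 15 were silent and none was switched on.

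**Figure D4:**
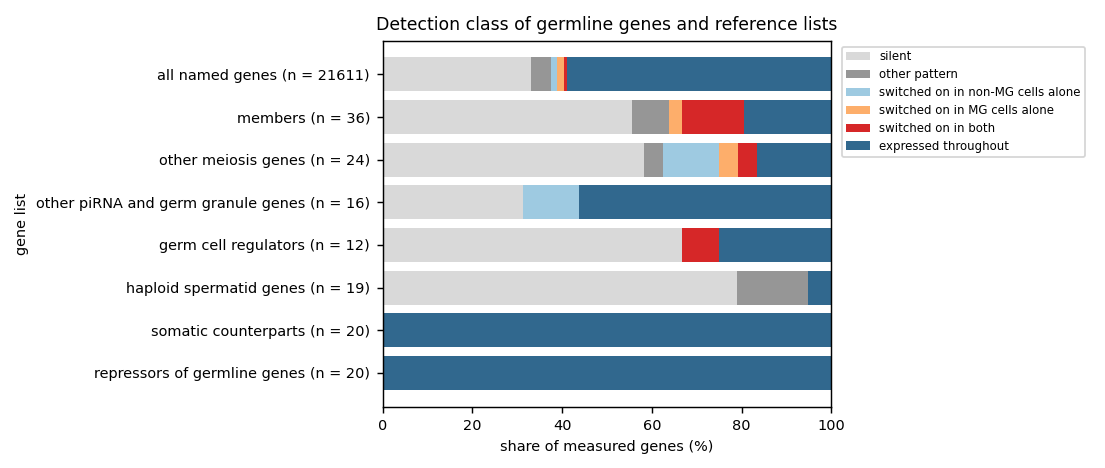
Share of the measured genes of each list (horizontal axis, percent) in each detection class, with a bar for each list, its number of measured genes in brackets, and a bar for all named genes. Members are silent in 55.6% and switched on in both subpopulations in 13.9%, compared with 33.2% and 0.583% of all named genes, whereas all 20 somatic counterparts and all 20 repressors are expressed throughout.

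All 20 somatic counterparts of the members, such as the cohesin subunits SMC1A and RAD21, the AGO Argonautes and the transketolase TKT, were expressed throughout. Their median log2 difference of 5-azacytidine over vehicle was -0.01 in non-MG cells and -0.04 in MG cells, and none passed 1.5-fold in either. All 20 genes known to repress germline genes, among them DNMT1, UHRF1, SETDB1, E2F6, MGA and PCGF6, were expressed throughout as well, with a median of 0.02 in non-MG cells and -0.03 in MG cells. RNF2 was the only one of these past 1.5-fold with 5-azacytidine, lower in MG cells by a log2 difference of -0.83.

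RefSeq gave a promoter window for 32 of the measured members, and not for HORMAD1, PIWIL2, PIWIL4 and TEX14. Where a gene had several windows, the one with the most CpG pairs was taken. The silent members with a window numbered 18, with a median of 29.5 CpG pairs and a range from 1 in DDX4 to 60 in MAEL. The 5108 silent named genes had a median of 8, with quartiles of 3 and 24. The 5 members switched on in both subpopulations had 18 to 26 CpG pairs, with a median of 21, compared with a median of 16 in 98 named genes of that class. The 7 members expressed throughout had 17 to 37, with a median of 26, compared with a median of 28 in 10054 named genes. CpG counts of silent and switched-on members overlapped. Among the 8 windows printed above, MAEL has the most CpG pairs, with 60, and TKTL1 the fewest, with 18.

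**Figure D5:**
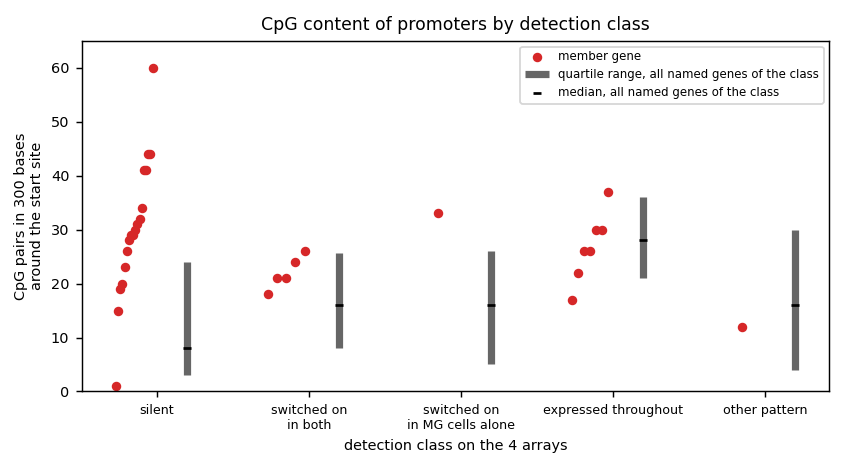
Number of CpG pairs in the promoter window of 300 bases (vertical axis) by detection class (horizontal axis), with a point for each member and, beside it, a bar for the quartile range and a dash for the median of all named genes of the class. Points of silent members spread from 1 to 60, with a median of 29.5 compared with 8 in all silent named genes.

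The windows were also searched, on both strands, for CACGTG, the E-box that MGA and MAX can bind, and for GCGGGA, the core of an E2F6 motif. Each holds a CpG pair, and the motifs can share no more than an end base. CACGTG was found in 7 of the 32 windows, or 21.9%, compared with 8.80% of the 16399 named genes with a window. By class it was in 4 of the 18 silent members, compared with 6.07% of silent named genes, in 2 of the 5 switched on in both subpopulations (TDRD1 and TDRD12), compared with 12.2%, and in 1 of the 7 expressed throughout, compared with 10.5%. GCGGGA was found in 20 of the 32, or 62.5%, compared with 36.6% of named genes. It was in 11 of the 18 silent members, compared with 22.2% of silent named genes, in 3 of the 5 switched on in both, compared with 29.6%, and in 5 of the 7 expressed throughout, compared with 45.0%. The members of each of these classes are few. The shares were not matched for CpG content, of which silent members had a median of 29.5 pairs and silent named genes 8. A match describes the letters of the window only.

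The members' levels lay near the limit of detection in most cases, and array number and signal limit the precision. The lowest intensity well above background was between 9.95 and 11.8, no spot was saturated, and between 21382 and 21881 of 50594 probes were well above background on an array. The median SD between spots of a probe was 0.59 at log2 intensities from 2 to 3, 0.32 from 3 to 4, 0.20 from 4 to 5 and 0.05 above 10.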

How the data were processed

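RNA of MG and non-MG cells, each with vehicle or 5-azacytidine, was hybridized to 4 one-colour Agilent arrays. The labels name RNAiso Plus for extraction and the methods name an RNeasy kit. The authors deposited the output of Feature Extraction 11.5.1.1 for each array, with linear background-corrected intensity values not normalized between arrays, and flags. A further deposited table holds the authors' log2 values from GeneSpring, centred on each probe's median over the arrays, and served here as an alternative. Their normalization between arrays is not given in the sources used here. Where the same probes were used, these values gave almost the same log2 differences as the scaling used here. In MG cells the difference for DDX43 was 3.85 in both. They are therefore no separate check of the scaling.

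Without control and outlier spots, 50594 of 50599 probes remained. The spots of a probe were averaged, and the array's 75th percentile was subtracted on the log2 scale. Accessions without version named 30000 probes through the RefSeq annotation of GRCh38.p14. A gene was above background where any of its probes was, and a probe where more than 50% of its spots were. The class switched on in a single subpopulation does not fix the pattern in the other. For folds, 23856 probes were retained, which were above background on some array and lay in the lowest 20th percentile on no more than 1. Their log2 differences were averaged per gene, and 1.5-fold was the threshold. For a probe with a bound, the brighter array was set against the detection limit of the dimmer array, its dimmest probe well above background, or against its own signal on that array if higher.

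The members and lists were chosen with earlier results of these data known. All members were named or counted. Of the other lists, the genes switched on in both subpopulations were named, and those switched on in a single one because their counts are small. RNF2 was chosen after its values were seen. Alternatives were quantile normalization, median centring, normexp with an offset of 50 on median spot signals, signals raised to the detection limit, no filter, probes above background on all arrays, the brightest probe, the authors' values, the flag for a significant signal, and thresholds of 2-fold and 1.4-fold. The rule of any spot above background was added after the data were seen. The code was tested on simulated data. Changes were planted there only in brighter genes, so that the test of folds does not cover signals near the limit of detection. Python 3.11.15, numpy 2.4.6, pandas 2.3.3, matplotlib 3.10.9, R 4.3.3 and limma 3.58.1 were used.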

Additional observations from a re-analysis of the deposited data

Results flagged for a closer look

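As computed from the single spot of the TEX14 probe, the log2 difference of 5-azacytidine over vehicle was -0.72 in MG cells and 0.79 in non-MG cells, which differ in sign. The difference between the subpopulations was not tested, since each condition has 1 array. TEX14 was well above background in MG cells with vehicle alone, so that neither array of non-MG cells gives a measured level and the value in MG cells is a bound of at least 1.24-fold lower. These values do not show that TEX14 moved in opposite directions. With normexp the value in non-MG cells was -0.028. The spot error of these differences was 0.45 in MG cells and 0.63 in non-MG cells.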

How the results depend on the processing

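Among the alternatives to the counts of members, 66 left the count within 1.5 times and 35 did not. Of 224 alternatives to the log2 differences of single members, 188 moved the value by less than the spot error. Many of these could not move it, so that the count is no measure of robustness. No filter and the brightest probe leave a member with a single probe unchanged. Raising signals to the detection limit leaves a probe well above background on both arrays unchanged. With detection by the flag for a significant signal, 7 members were silent, 2 were switched on in both subpopulations, 3 in MG cells alone and 1 in non-MG cells alone, and 19 were expressed throughout. Only DAZL and HENMT1 were then switched on in both, since that flag was also set with vehicle for SYCP3, DDX43, TKTL1 and TDRD1 in both subpopulations and for TDRD12 in MG cells. With any spot sufficing, 2 members were switched on in MG cells alone. The brightest probe alone and a bound of at least 1.5-fold left the same 5 members switched on in both and DAZL in MG cells alone. For TDRD1 the bound was met by a different probe in each subpopulation, since A_33_P3232995 had 1.38-fold in non-MG and 2.48-fold in MG cells and A_33_P3373329 had 1.74-fold and 1.4-fold.

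The counts past 1.5-fold are small and moved with the treatment of dim signals. For 5-azacytidine in MG cells, the members higher were 2 with normexp, 10 with no filter and 0 among probes above background on all arrays, and those lower were 0 with normexp, 1 with signals raised to the detection limit, 1 among probes above background on all arrays and 0 past 2-fold. For 5-azacytidine in non-MG cells, those higher were 1 with normexp, 11 with no filter and 0 among probes above background on all arrays, and those lower were 0 with normexp, 1 with no filter and 0 past 2-fold. Between the subpopulations with vehicle, those higher in MG cells were 0 with normexp, with signals raised to the detection limit and among probes above background on all arrays, and those lower were 0 with normexp, 5 with no filter, 1 past 2-fold and 5 past 1.4-fold, and 2 with median centring. Between the subpopulations with 5-azacytidine, those higher in MG cells were 1 with normexp, 4 with no filter, 0 among probes above background on all arrays and 1 past 2-fold, and those lower were 0 with median centring, normexp and 2-fold, 6 with no filter and 3 past 1.4-fold. The filter for probes above background on all arrays leaves out every member counted as higher without it. Each of them lacked that flag on some array, so that the counts of 0 higher are no check. Fewer or more genes counted are part of the filter settings, and the offset in normexp shrinks the folds of dim probes. Otherwise the cause was not tested. TEX14 in non-MG cells turned to a log2 difference of -0.028 with normexp.

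No paired analysis was possible because each condition has 1 array, and for the same reason no array was left out in turn. Finding members by gene symbol was not run, since the files used here pair probes with accessions only. Most members lie near the limit of detection, where a gene called silent has a bound and not a zero.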
